A study of Homo sapiens with 12 samples.

Results

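The genes described here encode the enzymes, isoenzymes and transporters that carry glucose to pyruvate and lactate, with the kinases, enzyme subunits and carriers that govern the entry of pyruvate into mitochondria. They are a list of 36 gene symbols taken by their place in the pathway, a choice made with earlier results of these data known. All 36 had a row among the 62069 gene identifiers measured, and 35 reached a normalised count of at least 10 in at least 3 libraries, the rule by which 19281 genes in all were kept. PDK2, which encodes a pyruvate dehydrogenase kinase, was not kept. It had a normalised count of 0.88 in the first library labelled DMSO 12 h, which is a single read, and 0 in the other 11 libraries, so it was not detectable beyond a single read at this depth. Poly-A RNA was sequenced from CUTLL1, a line from human T-cell acute lymphoblastic leukaemia with a rearranged, constitutively active NOTCH1. The labels give 4 groups of 3 libraries: cells given Compound E at 1 µM, an inhibitor of gamma-secretase (GSI), and harvested after 48 h; cells given the solvent DMSO and harvested after 48 h; and GSI and DMSO cells harvested after 12 h. All groups were the same cell line, and the labels do not say whether the numbered replicates were grown separately; the p-values refer to the spread among these libraries, which may be technical.

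Glycolysis splits glucose into pyruvate in the cytosol and yields ATP without oxygen. Most of its steps are served by several genes whose products differ in regulation and tissue distribution. Its pace is set largely at hexokinase and at phosphofructokinase, and phosphofructokinase is activated by fructose 2,6-bisphosphate, which the PFKFB enzymes make and break down. Pyruvate is either reduced to lactate and exported, or carried into mitochondria, where pyruvate dehydrogenase converts it to acetyl-CoA unless a pyruvate dehydrogenase kinase has switched that complex off. Activated T cells and T-cell leukaemias are known for high glucose uptake. Several of these genes are also textbook targets of the hypoxia-inducible factors, and MYC, itself a NOTCH1 target in these leukaemias, is known to drive glycolytic genes.

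Some features of the libraries come before the results. Recovered read totals ranged from 73939612 to 160702764 per library. The 8 T-lineage markers were all present, with summed normalised counts from 226909 to 333566, while erythroid markers summed to at most 2.69, epithelial markers to at most 36.3, stromal markers to at most 42.8 and myeloid markers to at most 53.1 in any library, and B-lineage markers, nearly all from 1 gene of 4, from 662 to 3042. A gamma-secretase inhibitor is known to lower NOTCH1 target genes. Of 6 such genes, 3 were called lower under the GSI label at 48 h and 4 at 12 h. Called means an adjusted p under 0.05 in a limma fit over all 19281 genes, of which 5.35% and 11.4% were called lower. The median log2 fold changes of the 6 were −0.42 and −0.48. All 6 were below 0 at 12 h, the highest at −0.14, while at 48 h NOTCH3 went the other way (0.43). All 6 were lower at the 48 h than at the 12 h label, by a median of −1.94 within DMSO and −1.73 within GSI. These genes thus separated the times more than the treatments; the groups are named by their labels throughout, and every direction below is drawn from those labels. Of 12 hypoxia marker genes outside the glycolytic list, 7 were called higher under the GSI label at 48 h and 11 at 12 h. Over all genes 4.33% and 10.1% were called higher. Of the 12 markers 0 were called lower at either time, and all had log2 fold changes above 0. The median log2 fold changes were 1.57 at 48 h and 2.78 at 12 h, and the lowest were 0.49 and 1.03. Their median per library, in log2 relative to the mean of all libraries, was 1.23, −0.16 and 0.71 at GSI 48 h, −1.09, −1.45 and −1.0 at DMSO 48 h, 2.09, 0.47 and 2.40 at GSI 12 h, and −0.93, −1.26 and −0.97 at DMSO 12 h. The second GSI-labelled library lay lowest of its group in this measure at both times, as it did for most of the glycolytic genes. Their part in the results on glycolytic genes was not tested.

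**Figure D1:**
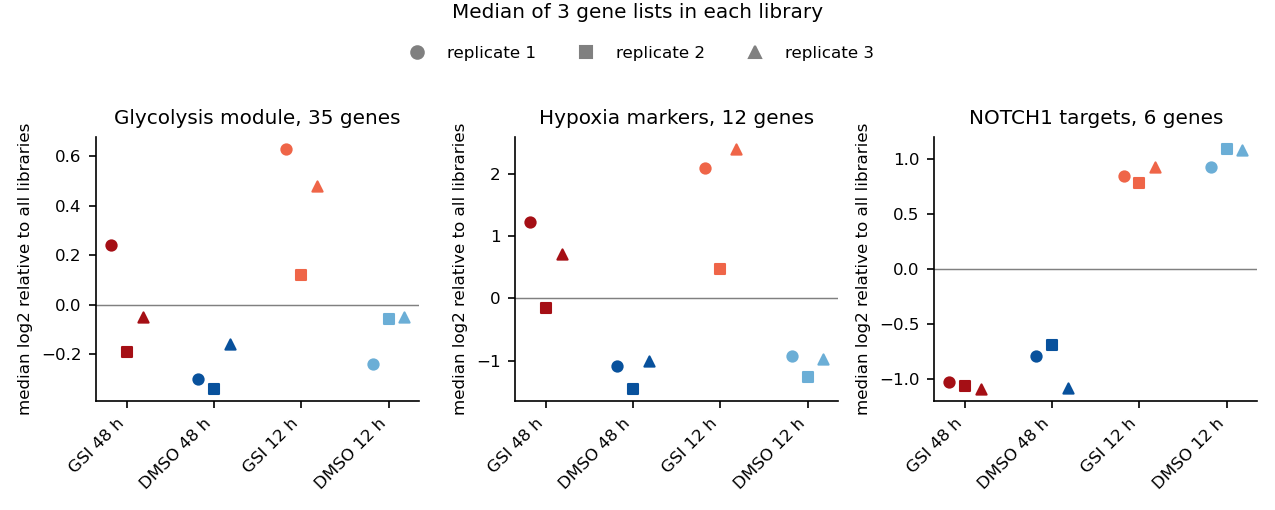
Median log2 normalised count of 3 gene lists in each library, relative to the mean of that gene over all 12 libraries (vertical axis), by labelled group (horizontal axis); points are libraries and their shape is the replicate number. The glycolytic median is 0.24, −0.19 and −0.05 at GSI 48 h, −0.30, −0.34 and −0.16 at DMSO 48 h, 0.63, 0.12 and 0.48 at GSI 12 h and −0.24, −0.06 and −0.05 at DMSO 12 h; the NOTCH1 targets separate the libraries by time label.

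Promoter sequences are shown for 4 members, 3 whose transcripts rose most at 12 h and 1 that was not called, because they set the promoter letters beside the response. Each is the 300 bases from 250 before to 50 after the gene start as annotated by RefSeq (GRCh38.p14), 5′ to 3′ on the gene's strand. Capitals mark every match to ACGTG or GCGTG, the core letters of the hypoxia response element, on either strand (CACGT and CACGC on the other strand). The E-box CACGTG, the site of MYC and related factors, holds ACGTG on both strands and is counted on both.
PFKFB4, chr3:48556754-48557053, minus strand: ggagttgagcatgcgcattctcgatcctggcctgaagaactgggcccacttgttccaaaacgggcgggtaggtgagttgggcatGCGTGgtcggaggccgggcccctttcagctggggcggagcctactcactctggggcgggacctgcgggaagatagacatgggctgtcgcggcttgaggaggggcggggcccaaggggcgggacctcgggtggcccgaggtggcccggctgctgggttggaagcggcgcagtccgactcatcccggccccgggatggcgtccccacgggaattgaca
PDK1, chr2:172555123-172555422, plus strand: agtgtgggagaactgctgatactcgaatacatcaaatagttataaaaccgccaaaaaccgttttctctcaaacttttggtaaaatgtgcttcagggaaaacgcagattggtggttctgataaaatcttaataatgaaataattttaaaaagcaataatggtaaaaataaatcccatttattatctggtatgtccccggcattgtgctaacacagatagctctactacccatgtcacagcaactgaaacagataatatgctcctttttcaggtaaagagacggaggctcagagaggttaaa
ALDOC, chr17:28576846-28577145, minus strand: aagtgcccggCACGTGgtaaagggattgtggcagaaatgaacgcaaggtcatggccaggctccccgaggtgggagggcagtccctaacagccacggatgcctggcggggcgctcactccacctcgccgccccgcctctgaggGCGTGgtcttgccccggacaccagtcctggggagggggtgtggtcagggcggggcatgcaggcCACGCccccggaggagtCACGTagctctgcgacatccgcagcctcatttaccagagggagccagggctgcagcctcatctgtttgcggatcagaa
PDHB, chr3:58433783-58434082, minus strand: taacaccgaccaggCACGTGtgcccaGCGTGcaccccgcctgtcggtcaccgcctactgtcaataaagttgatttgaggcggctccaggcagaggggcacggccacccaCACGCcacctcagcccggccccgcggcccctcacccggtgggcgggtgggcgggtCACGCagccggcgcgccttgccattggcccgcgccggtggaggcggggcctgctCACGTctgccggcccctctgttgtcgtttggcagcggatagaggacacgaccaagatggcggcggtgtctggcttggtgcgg
The PFKFB4 promoter had 1 match, that of PDK1 had 0, that of ALDOC had 5 and that of PDHB, whose transcript was not called, had 6. A promoter was found for 33 members; SLC2A3, SLC16A1 and PFKFB2 have no entry. Of these 33, 23 held ACGTG or GCGTG (69.7%), against 48.4% of 35116 promoters of the same length, and 5 held CACGTG (15.2%), against 7.26%. The 35116 were all promoters at hand, not matched to the members by gene type or base content. The difference in shares was not tested. By response at 12 h, 11 of 18 members called higher held either core, as did 1 of 1 called lower and 11 of 13 not called. These matches describe the letters in this window and no binding was measured.

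More of these genes were called higher than lower in GSI-labelled libraries at both times. PFKFB4, PDK1, PFKFB3, PDK3 and PFKL were called higher at both times, where called means an adjusted p under 0.05 in a limma fit over all 19281 genes. At 48 h these 5 members were called higher and 1, PGM2, lower, with 29 not called; over all genes 4.33% were called higher and 5.35% lower. At 12 h, 19 members were called higher and 3 lower, with 13 not called; over all genes 10.1% were called higher and 11.4% lower. The members' median log2 fold change was 0.26 at 48 h and 0.60 at 12 h, beside medians of 0.00 over all genes kept. The groups did not overlap for 9 members with higher and 2 with lower values at 48 h (16.9% and 18.5% of all genes), and for 23 and 4 at 12 h (17.1% and 19.3%). Upper-quartile scaling moved the balance over all genes, with 1220 higher and 682 lower at 48 h in place of 834 and 1032, and 2536 and 1585 at 12 h in place of 1943 and 2201, and shifted the median of all genes by under 0.1. In bulk RNA, more cells with a transcript and more transcript per cell cannot be told apart.

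**Figure D2:**
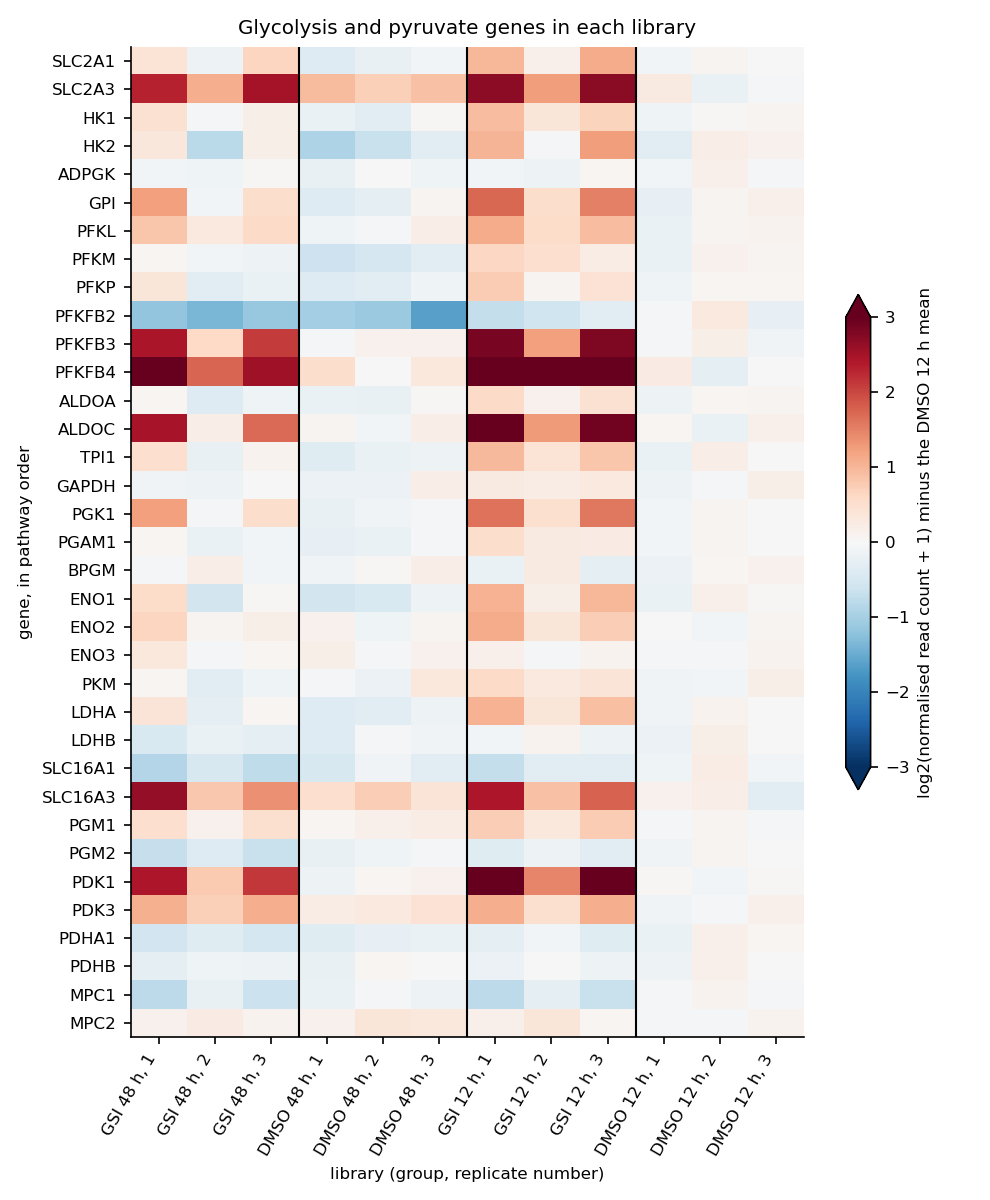
Log2 normalised count of the 35 kept genes (rows, in pathway order) in each library (columns, by labelled group), minus the gene's mean in the DMSO 12 h group; the colour scale ends at −3 and 3, which PFKFB4 exceeds in all 3 GSI 12 h libraries and the first GSI 48 h library, and PDK1 in the first and the third GSI 12 h libraries. PFKFB4, PDK1, ALDOC, PFKFB3, SLC2A3 and SLC16A3 are the rows furthest above their DMSO 12 h level in GSI-labelled libraries, and the second GSI library is the palest of its group in these rows at both times, except where all 3 exceed the scale.

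**Figure D3:**
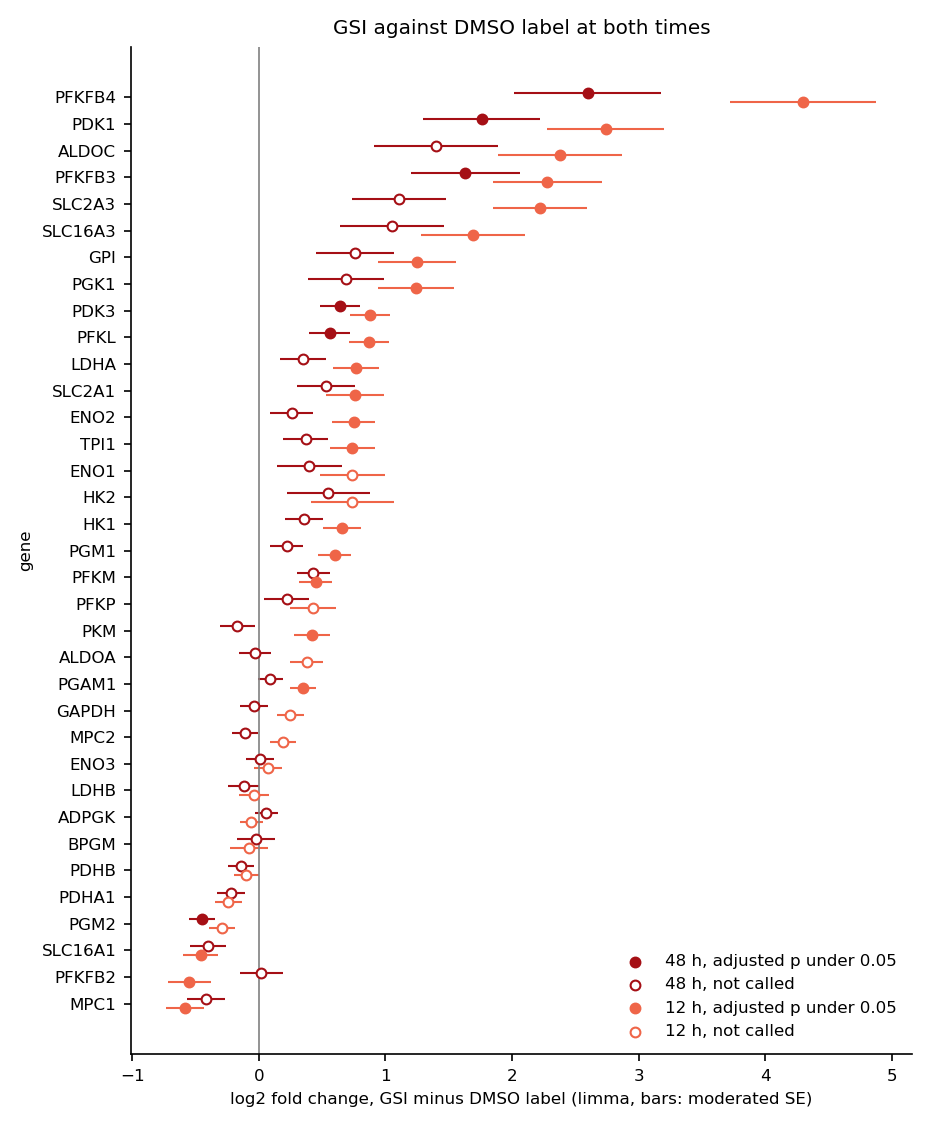
Log2 fold change of each kept gene, GSI minus DMSO label (horizontal axis, bars are moderated standard errors from limma), at 48 h (upper point of each row) and 12 h (lower point); filled points are called. Filled 12 h points run from 0.35 for PGAM1 to 4.30 for PFKFB4 on the higher side, and for most genes above 0 the 48 h point lies left of the 12 h point.

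Both GSI libraries numbered 2 were often the lowest of their group, for 26 of 35 members at 48 h and 24 at 12 h. They were the highest for 8 members at each time. These ranks were not taken over all genes. At 48 h the first GSI library stood furthest from the others, with a members' median of 0.24 beside −0.19 and −0.05 (log2 relative to all libraries). Between libraries of the same number, the median GSI minus DMSO difference of the members was 0.65, −0.00 and 0.18 (log2) for numbers 1, 2 and 3 at 48 h, with 28, 17 and 21 of 35 members above 0. At 12 h it was 0.89, 0.23 and 0.58, with 28, 26 and 25 members above 0. The 12 h numbers are not taken as pairs, so these differences only describe the libraries. Counts above 0 were not taken over all genes at either time. Without both GSI libraries numbered 2, 17 members were called higher and 3 lower at 48 h, and 22 and 4 at 12 h. The same fit called 1743 genes higher and 2299 lower over all genes at 48 h, in place of 834 and 1032. At 12 h it called 2628 higher and 3115 lower over all genes, in place of 1943 and 2201. Calls over all genes thus rose as well. Of the 5 higher calls at 48 h, 0 were kept in all 12 fits that each left out 1 library. The count of 5 higher became 0 without either of the first and second DMSO 48 h libraries or either of the first and the third GSI 48 h libraries, 2 without the third DMSO 48 h library, 12 without the second GSI 48 h library and 9 without the second GSI 12 h library. Without the filter on low values PFKL and PFKFB3 were not called at 48 h. PGM2's call was lost without any of the 3 DMSO 48 h libraries or the first or the third GSI 48 h library. At 12 h the count of 19 higher fell to 8 without the first GSI 12 h library and was otherwise between 14 and 23. The 8 members called in every such fit were SLC2A3, PFKL, PFKFB3, PFKFB4, ALDOC, PGM1, PDK1 and PDK3. The count of 3 lower became 0 without the first GSI 12 h or the second DMSO 12 h library, and 1 without the third GSI 12 h library. Same-numbered libraries deviated together only weakly at 48 h (correlations of 0.103, 0.157 and 0.104, just above the limit of 0.1). With the replicate number as a block over all 12 libraries, those of 12 h included, 9 members were called higher and 3 lower at 48 h. Over all genes that fit called 2272 higher and 2989 lower at 48 h. The values given below with the block rest on this weak pairing.

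Glucose enters these cells through the facilitative transporters GLUT1 and GLUT3, encoded by SLC2A1 and SLC2A3, of which GLUT3 is the high-affinity form. SLC2A3 had normalised counts of 16499, 7078 and 18844 in GSI-labelled libraries at 48 h, against 6466, 5459 and 6148 in DMSO-labelled libraries. At 12 h the counts were 21480.0, 7967 and 21732 in GSI-labelled libraries, against 4029, 2887 and 3171 in DMSO-labelled libraries. The groups did not overlap at either time, and the second GSI library lay far below the other two. SLC2A3 rose at 12 h (log2 fold change 2.22 ± 0.37 SE, adjusted p = 0.00332). At 48 h its log2 fold change was 1.11 ± 0.37 (adjusted p = 0.0729, and 0.00905 with the replicate block, which called it higher). SLC2A1 had 7608, 5172 and 8938 in GSI-labelled libraries at 48 h, against 4379.8, 4916 and 5431 in DMSO-labelled libraries, and the groups overlapped through the second GSI library. At 12 h SLC2A1 had 11371, 6357 and 12439 in GSI-labelled libraries, against 5403, 6028 and 5702 in DMSO-labelled libraries, with no overlap. It rose at 12 h by 0.76 ± 0.23 (adjusted p = 0.0322), a call lost without any of 5 libraries, all 3 of DMSO 12 h and the first and the third of GSI 12 h; at 48 h the change was 0.53 ± 0.23 (adjusted p = 0.139). Per kb of exon, SLC2A3 made up 58.5 ± 6.31% at GSI 48 h, 48.5 ± 3.97% at DMSO 48 h, 55.1 ± 5.40% at GSI 12 h and 31.1 ± 4.86% at DMSO 12 h of the summed level of both transporters (SD, n = 3). It was thus the more abundant of the pair per length in both GSI-labelled groups and the less abundant in DMSO 12 h; in DMSO 48 h the order depended on the length used, with 53.5 ± 3.94% by the principal transcript.

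Hexokinases trap glucose as glucose 6-phosphate; HK1 is the widely expressed form, HK2 the inducible form of muscle, fat and many tumours, and ADPGK a kinase that uses ADP. HK1 had 26524, 18936 and 21916 in GSI-labelled libraries at 48 h, against 16919, 15445 and 19852 in DMSO-labelled libraries. At 12 h it had 36932, 24818 and 30669 in GSI-labelled libraries, against 17658, 19872 and 20516 in DMSO-labelled libraries. The GSI-labelled values all lay above the DMSO-labelled ones at 12 h, where HK1 rose by 0.66 ± 0.15 (log2, adjusted p = 0.0108, lost without the first GSI 12 h library), and overlapped at 48 h (0.36 ± 0.15, adjusted p = 0.129). HK2 had 14827, 6670.1 and 13215 in GSI-labelled libraries at 48 h, against 6164, 7351 and 9243 in DMSO-labelled libraries. At 12 h HK2 had 23918, 11169 and 27943 in GSI-labelled libraries, against 9355, 13426 and 12829 in DMSO-labelled libraries. The first and the third GSI libraries lay above all DMSO libraries of their time, and the second within their range. HK2 was not called at either time (log2 fold change 0.55 ± 0.33, adjusted p = 0.285 at 48 h; 0.74 ± 0.33, adjusted p = 0.126 at 12 h), but was called higher at both without the second GSI libraries, with log2 fold changes of 0.90 and 1.14. DESeq2 also called HK2 higher at 12 h, while edgeR did not. ADPGK ranged from 8980.1 to 10151 at GSI 48 h, 8494 to 9806 at DMSO 48 h, 8852 to 10224 at GSI 12 h and 9255 to 10971 at DMSO 12 h, with log2 fold changes of 0.06 and −0.06. HK1 had the largest share of the 3 per kb of exon in all groups, from 46.0 ± 2.01% at DMSO 12 h to 50.6 ± 3.17% at GSI 48 h.

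Phosphoglucomutases interconvert glucose 6-phosphate and glucose 1-phosphate, the branch point towards glycogen; PGM2 acts mainly on pentose phosphates. PGM1 was called higher at 12 h and PGM2 lower at 48 h. PGM1 had 3877, 2993 and 3826 in GSI-labelled libraries at 48 h, against 2878, 3032 and 3197 in DMSO-labelled libraries, and the second GSI library lay among the DMSO libraries (log2 fold change 0.22 ± 0.13, adjusted p = 0.264). At 12 h PGM1 had 4553, 3410.1 and 4657 in GSI-labelled libraries, against 2659, 2899 and 2692 in DMSO-labelled libraries. It rose there by 0.60 ± 0.13 (adjusted p = 0.00830), with all GSI libraries above all DMSO libraries. PGM2 had 5571, 6822 and 5578 in GSI-labelled libraries at 48 h, against 7646, 8173 and 8653 in DMSO-labelled libraries, without overlap. PGM2 was the member called lower at 48 h (−0.45 ± 0.10, adjusted p = 0.0216). At 12 h PGM2 had 6924, 8017 and 7019.6 in GSI-labelled libraries, against 8356, 9392 and 9076 in DMSO-labelled libraries, again without overlap, and did not pass the threshold (−0.29 ± 0.10, adjusted p = 0.0536). DESeq2 and the fits without the second GSI 12 h or the second GSI 48 h library called PGM2 lower there, while edgeR did not. The second GSI library was the highest of its group for PGM2 at both times, nearest to the DMSO libraries.

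Glucose phosphate isomerase, encoded by GPI, makes fructose 6-phosphate, which phosphofructokinase commits to glycolysis through the liver-type (PFKL), muscle-type (PFKM) and platelet-type (PFKP) subunits. GPI had 73048, 29413 and 44632 in GSI-labelled libraries at 48 h, against 23669, 25348 and 32748 in DMSO-labelled libraries. At 12 h GPI had 102318, 44586 and 87817 in GSI-labelled libraries, against 26069, 32929 and 34716 in DMSO-labelled libraries. The first GSI library was the highest and the second the lowest of its group at both times, and only at 12 h were the groups separate. GPI rose at 12 h by 1.25 ± 0.31 (log2, adjusted p = 0.0157), a call lost without the first DMSO 12 h, first GSI 12 h or the third GSI 12 h library; at 48 h the change was 0.76 ± 0.31 (adjusted p = 0.126). PFKL had 17665, 12204 and 14835 in GSI-labelled libraries at 48 h, against 9039, 9764 and 11379 in DMSO-labelled libraries. At 12 h PFKL had 21470.3, 14629 and 18973 in GSI-labelled libraries, against 8671, 10607 and 10702 in DMSO-labelled libraries. All GSI libraries lay above all DMSO libraries at both times, and PFKL rose by 0.56 ± 0.16 at 48 h (adjusted p = 0.0438) and 0.87 ± 0.16 at 12 h (adjusted p = 0.00423). PFKM had 2519, 2277 and 2165 in GSI-labelled libraries at 48 h, against 1551, 1687 and 1936 in DMSO-labelled libraries. At 12 h PFKM had 3668, 3385 and 2813 in GSI-labelled libraries, against 2079, 2619.6 and 2538 in DMSO-labelled libraries. There was no overlap at either time, and unlike most members PFKM was lowest in the third GSI library. PFKM rose at 12 h (0.45 ± 0.13, adjusted p = 0.0276, lost without the first GSI 12 h or the first DMSO 12 h library, without both second GSI libraries and with the compared groups alone) and stood at 0.43 ± 0.13 at 48 h (adjusted p = 0.0511, and 0.0325 with the replicate block). PFKP, the most abundant subunit per kb of exon, had 30952, 18816 and 20969 in GSI-labelled libraries at 48 h, against 18438, 19318 and 21882 in DMSO-labelled libraries. Its counts at 12 h were 40718, 25445 and 32553 in GSI-labelled libraries, against 22046, 25056 and 24864 in DMSO-labelled libraries, where every GSI library lay above every DMSO library, the second only just. PFKP was not called (0.22 ± 0.18, adjusted p = 0.440 at 48 h; 0.43 ± 0.18, adjusted p = 0.10 at 12 h). PFKP held 70.7 ± 2.35% at GSI 48 h, 75.1 ± 0.538% at DMSO 48 h, 72.9 ± 1.44% at GSI 12 h and 77.4 ± 0.844% at DMSO 12 h of the 3 subunits per kb of exon (SD, n = 3).

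The PFKFB enzymes set the level of fructose 2,6-bisphosphate, the activator of phosphofructokinase. PFKFB3 has a high kinase activity and PFKFB4 is a form first described in testis, both inducible by hypoxia, while PFKFB2 is best known from heart. PFKFB4 had the largest rise of the list. Its normalised counts were 8074, 1295 and 2250.4 in GSI-labelled libraries at 48 h, against 559, 389 and 482 in DMSO-labelled libraries. At 12 h they were 14434, 3218 and 9628 in GSI-labelled libraries, against 461, 322 and 392 in DMSO-labelled libraries. No GSI-labelled library overlapped the DMSO-labelled ones, the first being the highest and the second the lowest of its group. PFKFB4 rose by 2.60 ± 0.58 at 48 h (log2, adjusted p = 0.0214) and by 4.30 ± 0.58 at 12 h (adjusted p = 0.00168). PFKFB3 had 20922, 5853 and 16523 in GSI-labelled libraries at 48 h, against 3779, 4242 and 4211 in DMSO-labelled libraries. At 12 h PFKFB3 had 27559.7, 8968 and 26709.6 in GSI-labelled libraries, against 3709, 4331 and 3551 in DMSO-labelled libraries. The first and the third GSI libraries lay several-fold above all DMSO libraries and the second lay between them and the DMSO libraries, with no overlap at either time. PFKFB3 rose by 1.63 ± 0.43 at 48 h (adjusted p = 0.0358) and 2.28 ± 0.43 at 12 h (adjusted p = 0.00510). PFKFB2 had 2444, 2118 and 2502 in GSI-labelled libraries at 48 h, against 2734, 2546 and 1794 in DMSO-labelled libraries, which overlapped. At 12 h PFKFB2 had 3333, 3642 and 4353 in GSI-labelled libraries, against 5298, 6781 and 4664 in DMSO-labelled libraries, and here every GSI library lay below every DMSO library. PFKFB2 fell at 12 h (−0.55 ± 0.17, adjusted p = 0.0346), a call lost without the first or second library of either 12 h group, without both second GSI libraries, with upper-quartile scaling and without the filter, and stood at 0.02 ± 0.17 at 48 h (adjusted p = 0.959).

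Per kb of exon, the makeup of the PFKFB step differed between the groups. PFKFB2 held 9.10 ± 5.34% at GSI 48 h, 23.6 ± 4.50% at DMSO 48 h, 8.81 ± 5.63% at GSI 12 h and 43.8 ± 2.61% at DMSO 12 h of the summed level of the 3 genes (SD, n = 3). PFKFB4 held 17.7 ± 7.96% at GSI 48 h, 8.02 ± 1.55% at DMSO 48 h, 26.7 ± 5.47% at GSI 12 h and 5.26 ± 1.38% at DMSO 12 h. PFKFB3 was the most abundant of the 3 in all groups, with 73.2 ± 7.17% at GSI 48 h, 68.4 ± 4.91% at DMSO 48 h, 64.5 ± 3.50% at GSI 12 h and 51.0 ± 1.56% at DMSO 12 h. With the length of the principal transcript in place of all exons the shares of PFKFB2 moved little, to 9.16 ± 5.41% at GSI 48 h, 24.1 ± 4.52% at DMSO 48 h, 8.70 ± 5.61% at GSI 12 h and 44.5 ± 2.73% at DMSO 12 h. The share of PFKFB2 in DMSO-labelled libraries was thus lower at 48 h than at 12 h as well, and PFKFB2 is taken up again with the comparisons over time.

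**Figure D4:**
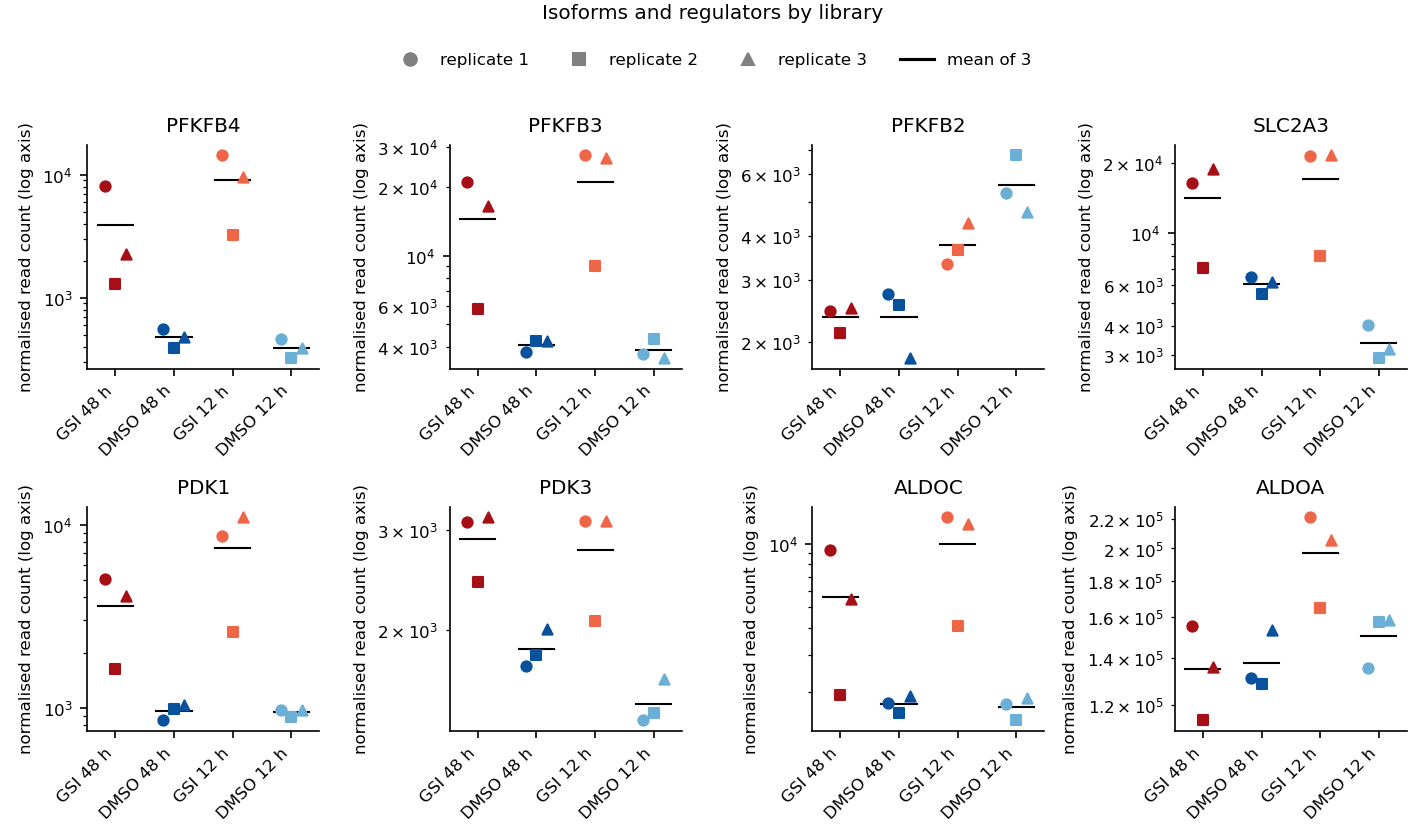
Normalised read count (vertical log axis) of 8 genes in each library, by labelled group (horizontal axis); shapes are replicate numbers and lines are means of 3. PFKFB4 reaches 14434 in the first GSI 12 h library, PFKFB2 runs the other way at 12 h, and the square of the GSI groups is the lowest point of its group in every panel except PFKFB2 at 12 h.

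Aldolase splits fructose 1,6-bisphosphate; ALDOA is the widespread form and ALDOC the form of brain. ALDOC had 9335, 1939 and 5496 in GSI-labelled libraries at 48 h, against 1768, 1592 and 1922 in DMSO-labelled libraries. At 12 h ALDOC had 13349, 4095 and 12429 in GSI-labelled libraries, against 1744, 1466 and 1867 in DMSO-labelled libraries. At 48 h the second GSI library stood just above the highest DMSO library, and the other two stood several-fold above. ALDOC rose at 12 h by 2.38 ± 0.49 (log2, adjusted p = 0.00656) and stood at 1.40 ± 0.49 at 48 h (adjusted p = 0.0793, and 0.0140 with the replicate block). ALDOA had 155006, 114006 and 135999 in GSI-labelled libraries at 48 h, against 130896, 128516 and 153397 in DMSO-labelled libraries. At 12 h ALDOA had 221618, 164647 and 205539 in GSI-labelled libraries, against 135337, 157345 and 158158 in DMSO-labelled libraries. ALDOA overlapped at 48 h and was separate at 12 h, and was not called at either time (−0.03 ± 0.13, adjusted p = 0.889; 0.38 ± 0.13, adjusted p = 0.0541). At 12 h DESeq2 and upper-quartile scaling called it higher, as did the fits without the second GSI 12 h library or without the first or the second GSI 48 h library, while edgeR did not. ALDOC remained the minor aldolase per kb of exon, with 4.93 ± 2.62% at GSI 48 h, 1.68 ± 0.0786% at DMSO 48 h, 6.05 ± 2.45% at GSI 12 h and 1.49 ± 0.238% at DMSO 12 h (SD, n = 3).

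The next steps run from triose phosphate isomerase (TPI1), which interconverts the products of aldolase, to pyruvate kinase (PKM). TPI1 had 97667, 59518 and 74639 in GSI-labelled libraries at 48 h, against 53509, 60539.9 and 62211 in DMSO-labelled libraries. At 12 h TPI1 had 135302, 91990.4 and 122480.2 in GSI-labelled libraries, against 59832, 79384 and 69099 in DMSO-labelled libraries. The 48 h groups overlapped (log2 fold change 0.37 ± 0.18, adjusted p = 0.176) and the 12 h groups were separate, where TPI1 rose by 0.74 ± 0.18 (adjusted p = 0.0122, lost without the first GSI 12 h library). PGK1, phosphoglycerate kinase and the first ATP-yielding step, had 166484, 68174 and 102030.3 in GSI-labelled libraries at 48 h, against 60803, 66103 and 68461 in DMSO-labelled libraries. PGK1 at 12 h had 219908, 98083 and 213048 in GSI-labelled libraries, against 66163, 75316 and 70607 in DMSO-labelled libraries. The first and the third GSI libraries stood well above the rest at both times, and the second overlapped the DMSO libraries at 48 h. PGK1 stood at 0.69 ± 0.30 at 48 h (adjusted p = 0.145) and rose by 1.24 ± 0.30 at 12 h (adjusted p = 0.0138, lost without the first or the third GSI 12 h library). PGAM1, phosphoglycerate mutase, had 47033, 39382 and 42657 in GSI-labelled libraries at 48 h, against 37935, 39442 and 43979 in DMSO-labelled libraries, with overlap (0.09 ± 0.10, adjusted p = 0.580). At 12 h PGAM1 had 65532, 54729 and 53926 in GSI-labelled libraries, against 42817, 48104 and 45074 in DMSO-labelled libraries, without overlap. It rose by 0.35 ± 0.10 at 12 h (adjusted p = 0.0245), a call lost with the compared groups alone and without the first GSI 12 h or the first or the third DMSO 12 h library.

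Enolase makes phosphoenolpyruvate, ENO1 being the general form, ENO2 the neuronal and ENO3 the muscle form. ENO2 had 41242, 27942 and 29966 in GSI-labelled libraries at 48 h, against 29165, 24382 and 28334 in DMSO-labelled libraries. ENO2 at 12 h had 57857, 34261 and 44635 in GSI-labelled libraries, against 26608, 25210.0 and 27941 in DMSO-labelled libraries. It overlapped at 48 h (log2 fold change 0.26 ± 0.17, adjusted p = 0.328) and was separate at 12 h, where it rose by 0.75 ± 0.17 (adjusted p = 0.0108, lost without the first GSI 12 h library). ENO1 had 322829.8, 150486 and 228155 in GSI-labelled libraries at 48 h, against 150719.8, 161573 and 198702 in DMSO-labelled libraries, with overlap (0.40 ± 0.26, adjusted p = 0.313). ENO1 at 12 h had 456919.6, 251769 and 441326 in GSI-labelled libraries, against 193352, 245544 and 228268 in DMSO-labelled libraries, where the second GSI library stood just above the highest DMSO library. Its log2 fold change at 12 h, 0.74 ± 0.26, missed the threshold with an adjusted p of 0.0542, and edgeR, DESeq2, upper-quartile scaling, the compared groups alone and the fits without the second GSI 12 h library or without the first or the second GSI 48 h library each called it higher. ENO3 ranged from 1548 to 1981 at GSI 48 h, 1570.4 to 1806 at DMSO 48 h, 1539 to 1776 at GSI 12 h and 1529.6 to 1724 at DMSO 12 h, with log2 fold changes of 0.01 and 0.07. PKM, the last step, had 229268, 174175 and 202301 in GSI-labelled libraries at 48 h, against 214920.0, 193908 and 274678 in DMSO-labelled libraries, with overlap (−0.17 ± 0.14, adjusted p = 0.438). PKM at 12 h had 325336, 269456 and 287923 in GSI-labelled libraries, against 204504, 207794 and 249494 in DMSO-labelled libraries, without overlap. It rose there by 0.42 ± 0.14 (adjusted p = 0.0483). That call was lost with edgeR, with a pseudocount of 10, without the filter and without any of 6 libraries, the first and the third GSI 12 h, the first and second DMSO 12 h, the third GSI 48 h and the first DMSO 48 h. GAPDH, often used as a reference gene, ranged from 513636 to 566806 at GSI 48 h, 505219 to 658929 at DMSO 48 h, 667198 to 700154 at GSI 12 h and 517109 to 654199 at DMSO 12 h. It was not called (−0.04 ± 0.11, adjusted p = 0.860 at 48 h; 0.25 ± 0.11, adjusted p = 0.127 at 12 h). BPGM, which makes the 2,3-bisphosphoglycerate of red cells, had log2 fold changes of −0.02 and −0.08 and overlapped at both times. Processed pseudogenes exist for several of these genes, GAPDH, PGK1, TPI1, ENO1, PGAM1 and LDHA among them, and no source used here gives the settings by which reads were assigned, so reads shared with such copies make their values uncertain.

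Lactate dehydrogenase is a tetramer of LDHA and LDHB subunits, LDHA favouring lactate formation. LDHA had 132048, 83434 and 104515 in GSI-labelled libraries at 48 h, against 76699, 79506 and 91038 in DMSO-labelled libraries. At 12 h LDHA had 208626, 129850.0 and 189059 in GSI-labelled libraries, against 93699.9, 108024 and 101503 in DMSO-labelled libraries. LDHA overlapped at 48 h through the second GSI library (log2 fold change 0.35 ± 0.18, adjusted p = 0.197) and was separate at 12 h, where it rose by 0.77 ± 0.18 (adjusted p = 0.0103, lost without the first GSI 12 h library). LDHB had 72939, 86619 and 81650.5 in GSI-labelled libraries at 48 h, against 75689.5, 95508 and 91992 in DMSO-labelled libraries. LDHB at 12 h had 94267, 106596 and 89867 in GSI-labelled libraries, against 87990.2, 111989.8 and 100198 in DMSO-labelled libraries. LDHB overlapped at both times, with log2 fold changes of −0.12 ± 0.12 (adjusted p = 0.501) and −0.04 ± 0.12 (adjusted p = 0.818). LDHA held 38.7 ± 7.46% at GSI 48 h, 31.2 ± 2.27% at DMSO 48 h, 46.2 ± 8.10% at GSI 12 h and 32.8 ± 1.09% at DMSO 12 h of the pair per kb of exon (SD, n = 3). By the principal transcript its share at GSI 12 h was 53.1 ± 8.22%, so which subunit was the more abundant in that group depended on the length used.

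Lactate leaves cells through the monocarboxylate transporters MCT1 (SLC16A1), of higher affinity, and MCT4 (SLC16A3), typical of glycolytic tissues. SLC16A3 had 2536, 713 and 1056 in GSI-labelled libraries at 48 h, against 579.9, 684 and 535 in DMSO-labelled libraries. At 12 h SLC16A3 had 2190.5, 758 and 1404 in GSI-labelled libraries, against 447, 469.6 and 326 in DMSO-labelled libraries. Every GSI library lay above every DMSO library at both times, the second by the least. SLC16A3 rose at 12 h by 1.69 ± 0.41 (log2, adjusted p = 0.0132, lost without the first GSI 12 h library) and stood at 1.05 ± 0.41 at 48 h (adjusted p = 0.108, and 0.0466 with the replicate block). SLC16A1 had 10282, 13504 and 11225 in GSI-labelled libraries at 48 h, against 13472, 17582 and 15055 in DMSO-labelled libraries, which overlapped. SLC16A1 at 12 h had 11529.6, 15186 and 14896 in GSI-labelled libraries, against 17215, 22183 and 17794 in DMSO-labelled libraries, without overlap. It fell at 12 h (−0.46 ± 0.14, adjusted p = 0.0372), a call lost without the first or the third GSI 12 h or the second or the third DMSO 12 h library, without the filter and with the compared groups alone; at 48 h its log2 fold change was −0.40 ± 0.14 (adjusted p = 0.0885, and 0.00262 with the replicate block). SLC16A1 was the far more abundant of the pair per kb of exon, and SLC16A3 held 7.0 ± 5.07% at GSI 48 h, 2.26 ± 0.212% at DMSO 48 h, 6.07 ± 3.68% at GSI 12 h and 1.27 ± 0.221% at DMSO 12 h (SD, n = 3).

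At the entry of pyruvate into mitochondria, the kinase genes PDK1 and PDK3 were called higher at both times. Their products switch off pyruvate dehydrogenase. PDK2 and, outside the list, PDK4 were not kept. A subunit of the pyruvate carrier fell at 12 h. PDK1 had 5047, 1626 and 4083 in GSI-labelled libraries at 48 h, against 850.4, 979 and 1028 in DMSO-labelled libraries. At 12 h PDK1 had 8668, 2584 and 10999.5 in GSI-labelled libraries, against 967, 886 and 969.8 in DMSO-labelled libraries. All GSI libraries lay above all DMSO libraries, whose values stayed between 850.4 and 1028. PDK1 rose by 1.76 ± 0.46 at 48 h (log2, adjusted p = 0.0337) and 2.74 ± 0.46 at 12 h (adjusted p = 0.00330). Its 48 h call was lost without any of the DMSO 48 h libraries or the first or the third GSI 48 h library. PDK3 had 3097, 2424 and 3165 in GSI-labelled libraries at 48 h, against 1723, 1804 and 2009 in DMSO-labelled libraries. At 12 h PDK3 had 3119, 2071 and 3120.3 in GSI-labelled libraries, against 1381, 1424 and 1635 in DMSO-labelled libraries. The groups were separate at both times and PDK3 rose by 0.64 ± 0.16 at 48 h (adjusted p = 0.0279) and 0.88 ± 0.16 at 12 h (adjusted p = 0.00397). Its 48 h call was lost without the first or second DMSO 48 h library or the first or the third GSI 48 h library. The subunits of the kinases' substrate were not called: PDHA1 had log2 fold changes of −0.22 ± 0.11 at 48 h (adjusted p = 0.185) and −0.24 ± 0.11 at 12 h (adjusted p = 0.120), and PDHB −0.14 ± 0.10 (adjusted p = 0.366) and −0.10 ± 0.10 (adjusted p = 0.492). PDHA1 ranged from 6060.2 to 7014 at GSI 48 h, 6989.7 to 7896 at DMSO 48 h, 6943 to 8465 at GSI 12 h and 7844 to 9943 at DMSO 12 h, overlapping at both times. MPC1, a subunit of the mitochondrial pyruvate carrier, had 2034, 3020.3 and 2256 in GSI-labelled libraries at 48 h, against 3072, 3393 and 3168 in DMSO-labelled libraries. MPC1 at 12 h had 2033, 2891 and 2222 in GSI-labelled libraries, against 3382, 3786 and 3381 in DMSO-labelled libraries. The GSI libraries lay below the DMSO libraries at both times, the second being nearest to them. MPC1 fell at 12 h (−0.58 ± 0.15, adjusted p = 0.0179, lost without the first or the third GSI 12 h or the second DMSO 12 h library) and stood at −0.42 ± 0.15 at 48 h (adjusted p = 0.0873, and 0.00830 with the replicate block). MPC2, its partner, had 2463, 2666 and 2393 in GSI-labelled libraries at 48 h, against 2456, 2862 and 2788 in DMSO-labelled libraries. MPC2 at 12 h had 2472, 2877 and 2347 in GSI-labelled libraries, against 2153, 2157 and 2415 in DMSO-labelled libraries, with overlap at both times (−0.11 ± 0.10, adjusted p = 0.515; 0.19 ± 0.10, adjusted p = 0.199).

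Ratios of genes listed at the same step describe their relative levels within a library, and cancel the scaling of the library. MPC1 with MPC2 and PDHA1 with PDHB are partner subunits, and PGM2 acts mainly on pentose phosphates. Those pairs are not alternative isoforms of a step. There were 15 pairs and 4 comparisons, 60 exact two-sided permutation tests of 3 against 3 libraries, which cannot go below p = 0.1; the smallest value adjusted over the 60 was 0.182, so no pair passed. The values are given as descriptions. The log2 ratio of PFKFB2 to PFKFB3 was −3.10, −1.47 and −2.72 at GSI 48 h, against −0.47, −0.74 and −1.23 at DMSO 48 h. At 12 h it was −3.05, −1.30 and −2.62 at GSI, against 0.51, 0.65 and 0.39 at DMSO. It was above 0 in the DMSO 12 h libraries alone, and its mean differed by −1.62 at 48 h and −2.84 at 12 h (exact p = 0.1 each). The log2 ratio of PDK1 to PDK3 was 0.70, −0.58 and 0.37 at GSI 48 h, against −1.02, −0.88 and −0.97 at DMSO 48 h. At 12 h it was 1.47, 0.32 and 1.82 at GSI, against −0.51, −0.68 and −0.75 at DMSO. The GSI ratios were above the DMSO ratios at both times, with PDK1 counted more often than PDK3 in every GSI library except the second at 48 h, and the means differed by 1.12 and 1.85. The PDK1 to PDK3 pair was taken after the values were seen, because PDK2 could not serve as a denominator. The log2 ratio of SLC2A3 to SLC2A1 was 1.12, 0.45 and 1.08 at GSI 48 h, against 0.56, 0.15 and 0.18 at DMSO 48 h. At 12 h it was 0.92, 0.33 and 0.80 at GSI, against −0.42, −1.06 and −0.85 at DMSO. The DMSO 12 h libraries were again the ones below 0, while the 48 h groups overlapped.

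The other pairs are also given as descriptions, since no pair passed. Between GSI and DMSO labels the mean log2 ratio differed at 48 h and 12 h by 1.45 and 2.15 for SLC16A3 to SLC16A1, by 1.43 and 2.0 for ALDOC to ALDOA, and by 0.97 and 2.02 for PFKFB4 to PFKFB3. It differed by 0.47 and 0.82 for LDHA to LDHB, by 0.31 and 0.77 for MPC2 to MPC1, and by −0.67 and −0.89 for PGM2 to PGM1. For PFKFB4 to PFKFB3 and LDHA to LDHB the groups overlapped at 48 h. The differences were −0.34 and −0.43 for PFKP to PFKL, without overlap. They were −0.13 and −0.42 for PFKM to PFKL and −0.39 and −0.68 for ENO3 to ENO1, both with overlap at 48 h only. Among the smallest differences were −0.14 and 0.00 for ENO2 to ENO1, 0.19 and 0.08 for HK2 to HK1 and 0.08 and 0.14 for PDHB to PDHA1. The second GSI libraries lay nearer to the DMSO libraries in most of these ratios. Without them the differences at 48 h and 12 h were −2.10 and −3.35 for PFKFB2 to PFKFB3, 1.49 and 2.30 for PDK1 to PDK3 and 1.95 and 2.42 for ALDOC to ALDOA, while for PFKFB4 to PFKFB3 they stayed at 0.98 and 2.11.

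**Figure D5:**
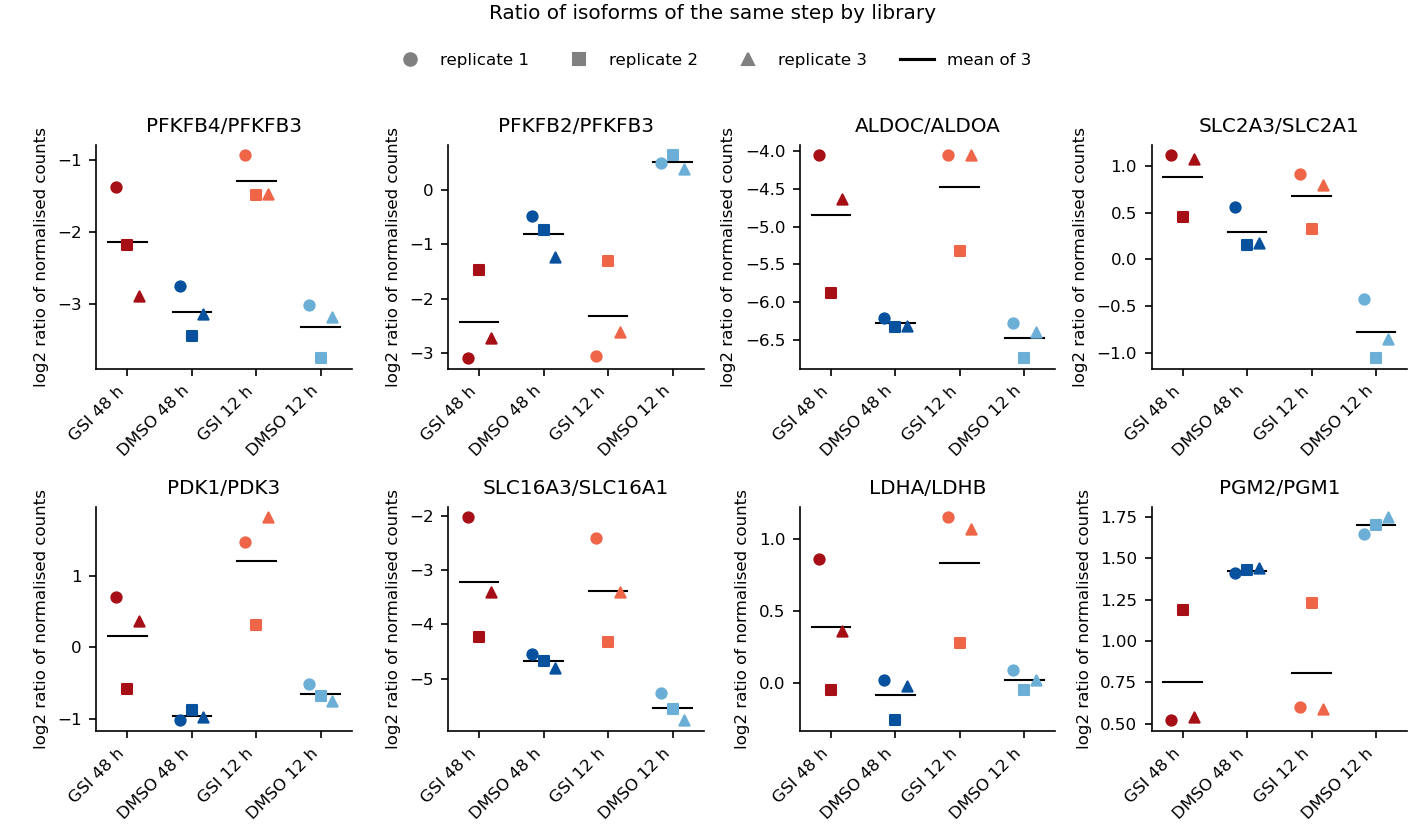
Log2 ratio of normalised counts of 8 gene pairs listed at the same step (vertical axis) in each library, by labelled group (horizontal axis). Shapes are replicate numbers and lines are means of 3. PFKFB2 to PFKFB3 is above 0 in DMSO 12 h libraries alone, and in the panels of ALDOC, PDK1, LDHA and SLC16A3 the second GSI library is the lowest of its group.

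The comparisons over time share their libraries with those of the treatment labels, so they are not independent of them. The main fit did not use the replicate numbers, although same-numbered libraries correlated between the times. In DMSO-labelled libraries 0 members were called higher and 1 lower at 48 h than at 12 h (2.03% and 2.51% of all genes), and the members' median log2 fold change was −0.12. The member called was PFKFB2, with the 48 h and 12 h values given above, no overlap, and a log2 fold change of −1.25 ± 0.17 (adjusted p = 0.00107), a call that held without any single library. With the replicate block, SLC2A3 was called higher (0.85, adjusted p = 0.0478, and 0.255 without the block) and PFKFB2, PFKM, SLC16A1 and PDHA1 lower. That block shared 1 effect per number between both labels. Same-numbered libraries correlated at 0.545 to 0.612 between the DMSO times, but at 0.034 to 0.272 between labels. A block within each label was not fitted for this comparison. PFKFB4, PDK1 and ALDOC, the members furthest above DMSO under the GSI label at 12 h, had log2 fold changes of 0.28, 0.01 and 0.06 between the DMSO groups. In GSI-labelled libraries 0 members were called higher and 6 lower at 48 h than at 12 h (1.62% and 2.37% of all genes), with a median of −0.45. These were LDHA (−0.72 ± 0.18, adjusted p = 0.0374), PFKFB2 (−0.68 ± 0.17, 0.0422), ALDOA (−0.55 ± 0.13, 0.0362), PKM (−0.55 ± 0.14, 0.0444), PFKM (−0.50 ± 0.13, 0.0484) and PGAM1 (−0.43 ± 0.10, 0.0275), all log2 fold changes with their SE and adjusted p. Their groups were separate except for LDHA. The count became 1 without the filter and with the compared groups alone, and 0 with upper-quartile scaling. It was also 0 without the first GSI 12 h, the second GSI 48 h or the third GSI 48 h library. Leaving out the third GSI 12 h library gave 2, the second DMSO 48 h library 3 and the second GSI 12 h library 11. The replicate block shared between labels gave 13. Same-numbered libraries correlated at 0.400 to 0.545 between the GSI times.

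Whether the difference between the treatment labels itself changed between the times was tested as an interaction. The main fit of this test also left the replicate numbers out. Limma called 0 of 35 members and 0 of all 19281 genes (0.0%), with 875 genes and 3 members at an unadjusted p under 0.05, and edgeR called 0 genes; DESeq2 called 62 genes, of which 0 were members. The 3 members were PKM (−0.58 ± 0.20, adjusted p = 0.862), ALDOA (−0.42 ± 0.19, adjusted p = 0.999) and PFKFB2 (0.57 ± 0.24, adjusted p = 0.999). The members' median of this difference was −0.29, negative meaning a smaller GSI minus DMSO difference at 48 h than at 12 h. With the replicate number as a block within each treatment label, 1177 genes were called, and 17 members among them, 16 with a smaller or more negative difference at 48 h and PFKFB2 with a larger one. In that fit PFKFB4 changed by −1.70 (adjusted p = 0.00201), SLC2A3 by −1.10 (adjusted p = 7.98e-05) and PKM by −0.58 (adjusted p = 0.00104). Counts of members called at 48 h and at 12 h are given side by side and not as a tested difference.

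Of 40 other genes of glucose entry and glycolysis, 25 were kept, among them tissue-restricted isoenzymes, further transporters and accessory enzymes. At 48 h 0 were called in either direction by limma, with 7 at an unadjusted p under 0.05, and their median log2 fold change was 0.03. At 12 h 3 of the 25 were called higher and 3 lower, with a median of 0.05, shares near the 10.1% and 11.4% of all genes called at that time, so the counts are no result about this list. The higher ones were SLC16A4, a monocarboxylate transporter family member (0.65 ± 0.21, adjusted p = 0.0452), GALM, which interconverts the anomers of hexoses (0.43 ± 0.10, adjusted p = 0.0104), and GPD1L, related to glycerol 3-phosphate dehydrogenase (0.32 ± 0.10, adjusted p = 0.0444). The lower ones were PGAM5, a mitochondrial phosphatase of the mutase family (−0.64 ± 0.16, adjusted p = 0.0162), DLAT, the acetyltransferase of the pyruvate dehydrogenase complex (−0.48 ± 0.12, adjusted p = 0.0167), and BSG, the chaperone of MCT1 and MCT4 (−0.33 ± 0.09, adjusted p = 0.0255).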

How the data were processed

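Poly-A RNA-seq of 12 CUTLL1 libraries was used, 3 for each of 4 label groups. The authors deposited a single table of normalised read counts per gene (a signal, reads divided by a size factor per library), and per the submitters' processing notes FastQC 0.10.1, TopHat2 2.0.10, HTSeq 0.6.1, DESeq2 and hg19 were used. No source used here gives their order, the annotation, the strand setting or the multi-mapping setting, so overlapping and antisense genes cannot be told apart. Within a library 100% of the deposited values were whole multiples of the step of 1 read (tolerance 0.01 reads), which gave back the reads, 73939612 to 160702764 per library; counting error is therefore small beside the spread between libraries.

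Genes were kept where 3 or more libraries reached a value of 10 (19281 of 62069). Limma 3.58.1 (R 4.3.3) was fitted to log2(normalised count + 1) over all 12 libraries with a mean for each group, an intensity trend in the variance and Benjamini-Hochberg adjustment over all genes kept, and called means an adjusted p under 0.05. Fold changes are on this scale, which understates changes of genes with few reads. The unit is not a count, so edgeR 4.0.16 and DESeq2 1.42.0 on the recovered reads were alternatives. The script was tested on simulated data. Other alternatives were a pseudocount of 10, no filter, the compared groups alone, the replicate number as a block, upper-quartile scaling and leaving out each library. Leaving out both GSI libraries numbered 2, and the PDK1 to PDK3 pair, were chosen after seeing the data. Deviations of same-numbered libraries from their group means correlated at 0.400 to 0.545 between the GSI groups. Between the DMSO groups the correlations were 0.545 to 0.612. Between the 48 h groups they were 0.103, 0.157 and 0.104, just above the limit of 0.1. The numbers were taken as pairs in these comparisons only in the alternative fits with the block. The main fit did not use the numbers. They were not taken as pairs between the 12 h groups, which did not reach that limit throughout. The block gave each number 1 effect shared by all 12 libraries and both labels. Only for the change of the difference between the times was it fitted within each label.

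The members and the gene lists were chosen with earlier results of these data known. All members are accounted for. Members called at 12 h or 48 h, and both genes of a pair with such a member, are given library by library, others by range; from other lists up to 3 called genes in each direction are named. Exon lengths are from GENCODE 29, as the union of exons or the principal transcript, and promoters from RefSeq (GRCh38.p14), matched by symbol for 33 of 36 members. Symbols were found for 18259 of the 19281 genes kept.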

Additional observations from a re-analysis of the deposited data

How the results depend on the processing

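No member's fold change with a call reversed sign under any alternative run. With a pseudocount of 10 the differences of the 15 pair ratios moved by less than the spread between libraries. They did so too with libraries left out. Leaving out 1 of 3 libraries of a group cannot move a difference beyond that spread, so those runs are no check. The replicate block and the removal of the second GSI libraries changed the counts of calls most, and the causes were not tested. At 48 h, in place of 5 higher, 3 members were called without a filter, 8 with the compared groups alone, 9 with the replicate block, 8 with edgeR, 9 with DESeq2 and 17 without both GSI libraries numbered 2; 3 were called lower with the replicate block and 3 without those libraries, in place of 1. All genes called at 48 h numbered 1075 without a filter, 5261 with the replicate block, 1919 with edgeR, 3231 with DESeq2 and 4042 without those libraries, in place of 1866. At 12 h, 1 member was called lower without a filter and 5 with the replicate block, in place of 3, and all genes called numbered 2607 with the compared groups alone, 6951 with the block and 4201 with edgeR, in place of 4144. Same-numbered 12 h libraries correlated at 0.096, 0.272 and 0.068, under the limit of 0.1 in 2 of 3, so their numbers are not taken as pairs, and not every library correlated best with its own number.

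Between the DMSO times, 2 members were called lower with a pseudocount of 10, with edgeR, with DESeq2 and without both GSI libraries numbered 2, and 4 with the replicate block, in place of 1; 1 was called higher with the compared groups alone, with the replicate block and without those libraries, in place of 0. All genes called numbered 2368 with the block, 931 with edgeR and 1568 with DESeq2, in place of 874. Between the GSI times, 1 member was called lower without a filter and 1 with the compared groups alone, 13 with the replicate block and 0 with upper-quartile scaling, in place of 6; all genes called numbered 477 with the compared groups alone, 1941 with the block, 740 with edgeR, 1257 with DESeq2 and 427 without both GSI libraries numbered 2, in place of 768. For the change of the GSI minus DMSO difference between the times, the replicate block called 1 member higher, 16 lower and 1177 genes in all, DESeq2 62 genes and the fit without both GSI libraries numbered 2 a single gene, in place of 0. This comparison uses all 4 groups, so the compared groups alone are not an alternative there.

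With each library left out in turn, the members called higher numbered 0 to 12 at 48 h and 8 to 23 at 12 h, and those called lower 0 to 3 at 48 h, 0 to 4 at 12 h, 1 to 2 between the DMSO times and 0 to 11 between the GSI times. All genes called ranged from 119 to 3036 at 48 h, 1599 to 5662 at 12 h, 353 to 1066 between the DMSO times, 443 to 737 between the GSI times and 0 to 4 for the change of the difference. The members' median log2 fold change stayed between 0.13 and 0.37 at 48 h, 0.51 and 0.74 at 12 h, −0.16 and −0.07 between the DMSO times, −0.60 and −0.33 between the GSI times and −0.46 and −0.17 for the change of the difference. With 3 libraries a group and a wide spread within the GSI groups, a p that misses the threshold does not show that a member did not differ. PDK2 was the only member not kept, and the cause of its near absence was not tested.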

Other observations

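Calls in 3 neighbouring routes of glucose carbon are given beside the shares of all genes called, 4.33% higher and 5.35% lower at 48 h and 10.1% higher and 11.4% lower at 12 h. Of 11 pentose phosphate genes, 0 were called by limma at 48 h (4 at an unadjusted p under 0.05); at 12 h H6PD, which oxidises glucose 6-phosphate in the endoplasmic reticulum, rose by 0.38 ± 0.10 (log2, adjusted p = 0.0153) and RPIA, ribose 5-phosphate isomerase, fell (−0.58 ± 0.12, adjusted p = 0.00796). TKT, transketolase, was lower at 48 h than at 12 h in GSI-labelled libraries (−0.41 ± 0.09, adjusted p = 0.0201). Of 10 glycogen genes kept, out of 11, PPP1R3B, which targets a phosphatase to glycogen, rose at 48 h (0.67 ± 0.19, adjusted p = 0.0411) and at 12 h (0.55 ± 0.19, adjusted p = 0.0489). PYGB, a glycogen phosphorylase, fell at 48 h (−0.40 ± 0.12, adjusted p = 0.0458) and at 12 h (−0.62 ± 0.12, adjusted p = 0.00454). GYS1, glycogen synthase, rose at 12 h (0.52 ± 0.11, adjusted p = 0.00731), and UGP2, which makes UDP-glucose, was higher at 48 h than at 12 h in DMSO-labelled libraries (0.56 ± 0.09, adjusted p = 0.00302). Groups did not overlap for any of these called genes.

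Of 21 citric acid cycle and anaplerotic genes, 0 were called by limma at 48 h (8 at an unadjusted p under 0.05, median log2 fold change −0.18). At 12 h their median was −0.13, ACO1, the cytosolic aconitase, rose (0.39 ± 0.10, adjusted p = 0.0162) and PC, pyruvate carboxylase, fell (−0.68 ± 0.17, adjusted p = 0.0167).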
